A study of Mus musculus with 10 samples.

Results

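Intestinal organoids were studied under a pair of changes that act on the same pathway at different points: removal of the R-spondin receptors Lgr4 and Lgr5 from the cells, and removal of the R-spondin ligand from the medium. The comparison uses 6 of the 10 arrays of the series, all organoids grown from mouse small intestine and all read 1 day after the change. The wt group (2 arrays) came from mice labelled VillinCre with no floxed receptor allele, and its label records tamoxifen induction. The deleted group (2 arrays) came from mice labelled VillinCre_Lgr4fl/fl-Lgr5fl/fl, and its label records the day after deletion but not the inducing agent. VillinCre is a Cre recombinase under the Villin promoter, which is active in the intestinal epithelium, so both groups carry the driver and differ in the floxed receptor alleles. In the R-spondin experiment, 1 culture was kept with EGF, Noggin and R-spondin (ENR) and 1 culture with EGF and Noggin only (EN) after splitting. Its labels give no genotype, and no label gives a strain, age or sex. The medium of the deletion cultures is not given in the sources used here. Members were chosen as all genes measured in both experiments, 13278 of the 28032 names on the array, and were then sorted by fixed sizes of the log2 change.

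R-spondins are secreted proteins that bind Lgr4, Lgr5 and Lgr6 and strengthen Wnt signalling. They do so by drawing in Rnf43 and Znrf3, membrane ubiquitin ligases that otherwise remove Frizzled receptors from the cell surface. In the small intestine, Wnt signalling maintains the Lgr5+ stem cells at the crypt base, and organoids need added R-spondin to keep growing. Axin2, Rnf43, Znrf3, Nkd1 and Lgr5 are themselves Wnt target genes, and the first 4 act as negative feedback.

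Each array is an Agilent 60-base oligonucleotide array. The organoid RNA was in the Cy5 channel and a commercial mouse reference RNA in the Cy3 channel. Values are normalised Cy5 signals, and a change is the difference of their log2 values. Between 46.9% and 50.7% of spots were above background in Cy5 on the 4 deletion arrays, against 62.2% and 63.1% on the R-spondin arrays. In Cy3 the share was 3.66% to 4.26% on the deletion arrays and 60.7% to 60.8% on the R-spondin arrays, which is why Cy5 alone was used. The first wt and first deleted arrays lay on 1 slide, the second of each on another, and the EN and ENR arrays on another again. The R-spondin arrays were scanned apart from the deletion arrays, so the experiment, its slide and its scan cannot be told apart. Of 20 epithelial identity genes 17 were measured, with a summed signal of 443742 to 573674 on the 6 arrays, and Epcam and Cdh1 were among them. Of 24 immune cell markers 10 were measured, with a summed signal of 2251 to 2998, and Ptprc, the common leukocyte antigen, had a spot above background on 1 of the 6 arrays. Of 22 stromal and endothelial markers 14 were measured, summing to 11125 to 18220. From that list, Col1a1 had a spot above background on all 6 arrays (65 of 72 spots) and Pecam1 on 0. The part of other cell types in the results was not tested. In such bulk samples, fewer cells of a type and less RNA per cell cannot be told apart.

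Lgr4 separated both changes, since its signal was low with the deletion and not without the ligand. Its array probes also show how far a single probe can be trusted, and the first 30 bases of the 3 probes that were above background are given here in lower case, with mm9 positions on the plus strand.

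Lgr4 probe used, chr2:109854007-109854066: gcatatgatgaagtttatcttgtgtaaatt

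Lgr4 probe of the same result, chr2:109852832-109852891: agtcagaagtctgtgaagaatgggagccta

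Lgr4 probe of another result, chr2:109829910-109831296: tgggttgaaagaactcaaagtcctaaccct

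The array assigns all 3 probes to the same Lgr4 transcript, and the third spans 1387 bases of genome with its 60 bases, so it crosses an intron. Where the floxed part of the gene lies is not given in the sources used here. On the probe used, the signal was 2464 and 3801 in the wt cultures, 189 and 341 in the deleted cultures, 1659 with R-spondin and 1733 without it. The deleted cultures lay far below both wt cultures, and the R-spondin cultures did not differ by more than 0.06 on the log2 scale. The change was -3.59 with deletion (SE 0.37, n = 2 against 2) and 0.06 without R-spondin. The limma adjusted p of the deletion change was 0.0848 over all genes, and 0.000969 with slide as a block. The second probe gave -3.51 and 0.59, and the third gave 0.14 and 0.29, with a signal of 169.5 to 460.3 on the 6 arrays. The result meant in the probe names above, the fall with deletion, therefore holds for 2 of 3 measured probes. On the second probe the signal was also higher without R-spondin, so the value near 0 there rests on the probe used.

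Lgr5, the receptor that marks the stem cells, was down to background in both experiments. Its signal was 1180 in the first wt culture, and the spot of the second was marked as an outlier and dropped. It was 73.1 and 82.8 in the deleted cultures, 4921 with R-spondin and 78.8 without R-spondin. It was not well above background in either deleted culture or in the culture without R-spondin. Lgr5 was at least 13.8-fold lower with deletion and at least 62.4-fold lower without R-spondin. Here "at least" sets the brighter group against the lowest signal that still counted as above background. The bound for deletion rests on 1 wt array. Lgr6, the third receptor, was near background, at 156.4 and 148.6 in wt, 132.1 and 102.7 in deleted cultures, and 100.2 and 104.2 with and without R-spondin. Its deletion change of -0.39 (SE 0.24) had a limma adjusted p of 0.812.

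Many genes were lower in both experiments, and more genes were past the cut without R-spondin than with deletion. A size of 1 on the log2 scale (a 2-fold change) counted as past the cut and a size under 0.3 as small. With deletion, 224 genes were at -1 or less (1.69% of the 13278) and 180 at 1 or more (1.36%). Without R-spondin, 1168 genes were at -1 or less (8.8%) and 904 at 1 or more (6.81%). Of the 224 genes lower with deletion, 180 (80.4%) were also lower without R-spondin, which is 15.4% of the 1168. Of the 180 genes higher with deletion, 54 (30%) were also higher without R-spondin, which is 5.97% of the 904. Genes past the cut with deletion and small without R-spondin numbered 12 lower and 46 higher. Genes past the cut without R-spondin and small with deletion numbered 214 lower and 270 higher. Only 4 genes were past the cut in opposite directions, and 11040 genes were past neither cut. The remaining 1458 genes were past 1 cut with a value between 0.3 and 1 for the other change, most of them (1307) past the withdrawal cut with the same sign in both. These groups are defined by the values themselves and are a description.

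**Figure D1:**
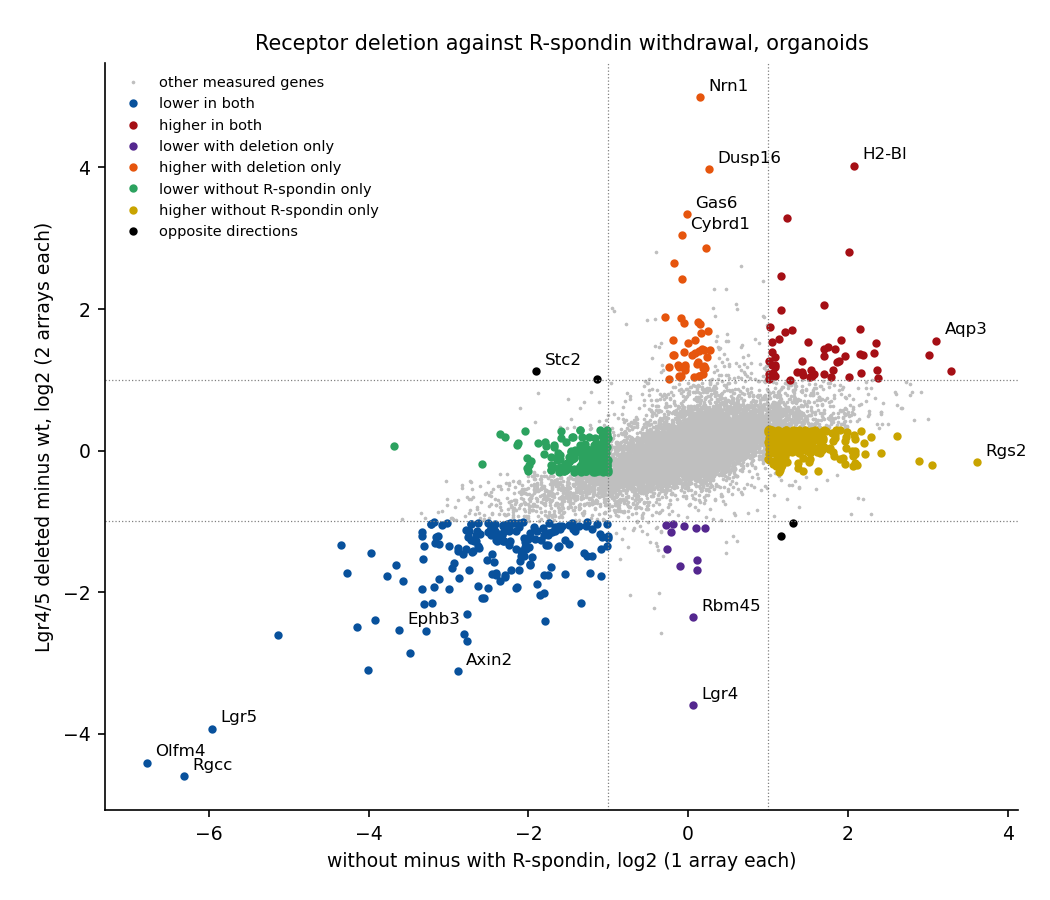
Log2 change with Lgr4/5 deletion (vertical axis, 2 against 2 arrays) against log2 change without R-spondin (horizontal axis, 1 against 1) for each of 13278 genes, with dotted lines at -1 and 1 and colours for the groups. Olfm4, Rgcc and Lgr5 lie at the lower left, Lgr4 lies low on the deletion axis near 0 on the other, and Nrn1, Dusp16, Gas6 and Cybrd1 lie high on the deletion axis alone.

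Across the 12595 genes with a value on all 6 arrays, Pearson's r between the changes was 0.652, and the slope of the deletion change on the withdrawal change was 0.359. Genes are not independent replicates, and each change shares its control arrays over all genes, so no p is given. The first slide of the deletion experiment correlated with the withdrawal at 0.646, the second at 0.480, and both slides with each other at 0.515. The standard deviation of the log2 differences over genes was 0.768 for the withdrawal, 0.513 and 0.457 for deleted minus wt within each slide, and 0.529 between the wt cultures themselves. A single pair of wt cultures thus spread as widely as a single deleted and wt pair, while the EN and ENR pair spread more widely than either.

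With that spread, limma (2 residual and 4.17 prior degrees of freedom) called 1 gene lower (0.00753%) and 4 genes higher (0.0301%) in deleted organoids at an adjusted p under 0.05. At an unadjusted p under 0.05 there were 547 lower and 425 higher genes. Labels do not say that the cultures came from separate mice, so these p-values measure the spread between these samples. With slide as a block, which compares each deleted culture with the wt culture of its slide, limma called 144 genes lower (1.14% of 12595) and 93 higher (0.738%). Of the 144, 113 were in the group lower in both. That group is defined by the same deletion change that these calls test, so the overlap follows in part from the cut. The slide terms leave that fit fewer than 2 residual degrees of freedom. All p-values given with slide as a block thus rest on less replication than those of the fit without the slide. Within the slides, 431 genes on the first and 203 on the second were at -1 or less, and 263 and 297 were at 1 or more.

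The genes lower in both experiments were led by stem cell genes and Wnt targets. Olfm4, a secreted glycoprotein of crypt base stem cells, had a signal of 7584 and 14301 in wt cultures, 271 and 891 in deleted cultures, 14866 with R-spondin and 135 without. Its levels did not overlap between wt and deleted cultures, and the culture without R-spondin was below all others. The log2 change was -4.41 (SE 0.59) with deletion and -6.78 without R-spondin. The limma adjusted p for deletion was 0.112, and 0.000969 with slide as a block. A second Olfm4 probe gave -4.19 and -6.06.

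Rgcc, a regulator of the cell cycle that was on the stem cell list and on the list of p53 targets, fell with deletion. Its signal was 3576 and 5591 in wt cultures, 236 and 146 in deleted cultures, 12648 with R-spondin and 159 without. The change was -4.59 (SE 0.34, limma adjusted p = 0.0287) with deletion and -6.32 without R-spondin. It was the only gene that limma called lower in the fit without the slide. Prelp, an extracellular matrix proteoglycan, changed by -3.09 and -4.01, with 1 wt value missing. Ptpro, a receptor tyrosine phosphatase, was at least 4.86-fold lower with deletion, with 1 deleted value missing, and at least 11.2-fold lower without R-spondin.

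**Figure D2:**
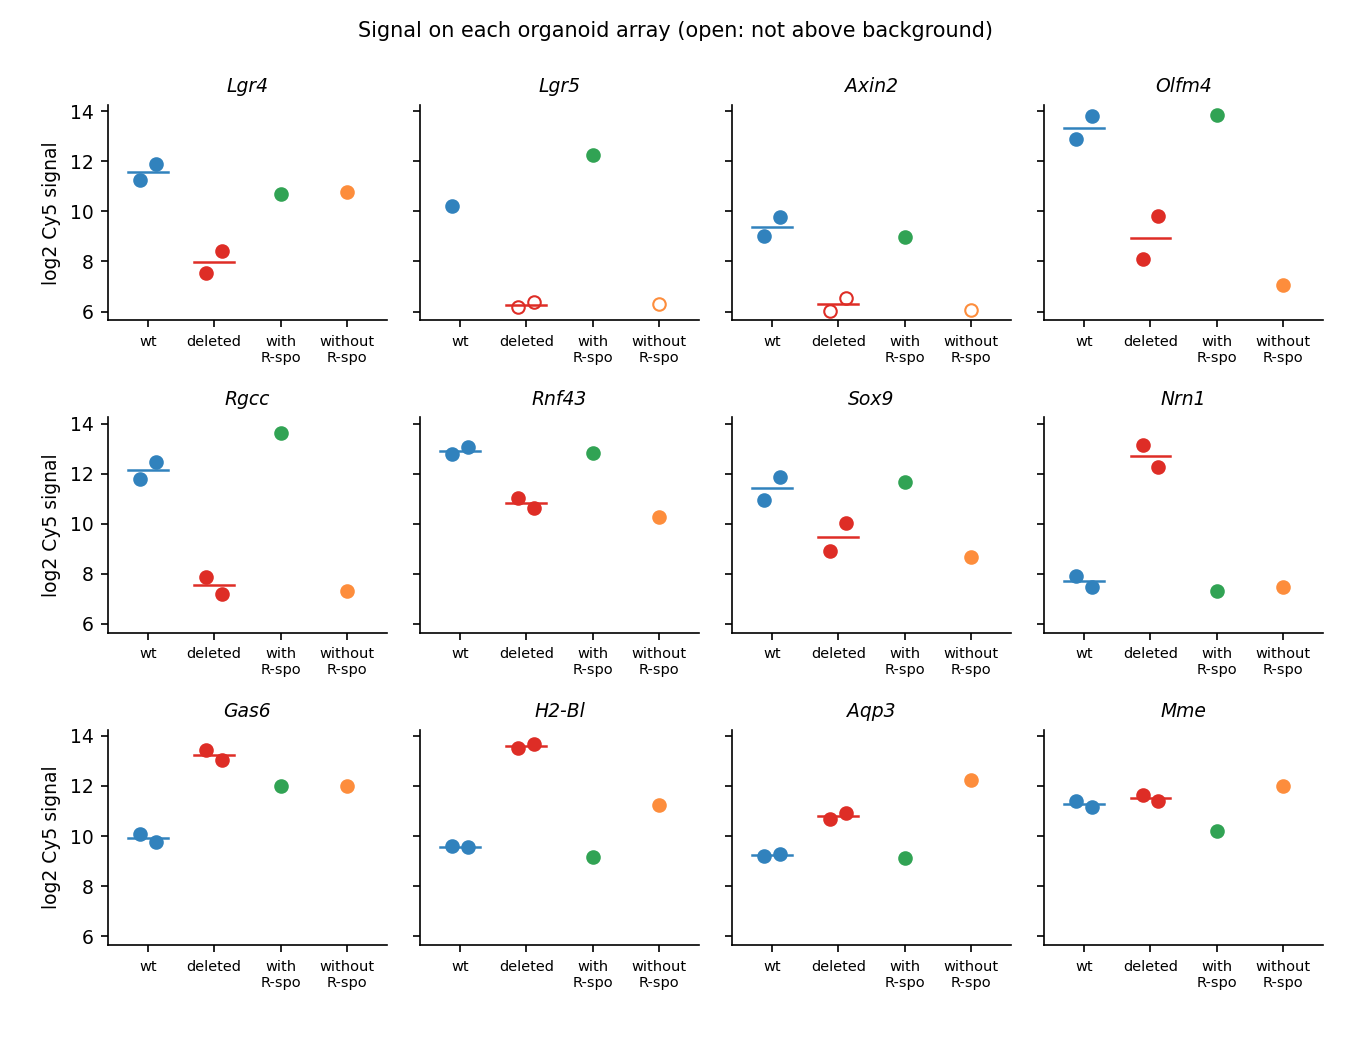
Log2 normalised Cy5 signal of 12 genes on each organoid array, by group (wt, deleted, with R-spondin, without R-spondin), with a bar at the mean where there are 2 values and an open circle where the probe was not above background. Lgr5, Axin2, Olfm4, Rgcc, Rnf43 and Sox9 are low in the deleted cultures and without R-spondin, Lgr4 is low only in the deleted cultures, and Nrn1 is high only there.

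All 22 measured genes of the Wnt target list (28 listed) had a change below 0 in both experiments, with a median of -1.32 with deletion and -2.38 without R-spondin. Over all 13278 genes the medians were 0.02 and 0.05. Of the 22, 15 were in the group lower in both (1.36% of all genes), and 20 were at -1 or less without R-spondin. In 21 of 22, the deleted values present lay below the wt values present, against 19.2% of all genes. Lgr5, with 1 wt value dropped, is among the 21. The median was -1.31 within the first slide and -1.34 within the second. With slide as a block, limma called 12 of 21 lower and 0 higher, against 1.14% and 0.738% of all genes fitted. This list was chosen with earlier results known and is not independent evidence of its direction.

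The negative feedback genes of the pathway were lower in both. Axin2, a scaffold of the complex that degrades beta-catenin, had a signal of 520 and 873 in wt, 65.7 and 92.6 in deleted cultures, 498 with R-spondin and 67.3 without. It was not well above background in the deleted cultures or without R-spondin. Axin2 was at least 7.85-fold lower with deletion and at least 6.58-fold lower without R-spondin, down to background in both. Rnf43 had a signal of 7047 and 8498 in wt, 2075 and 1602 in deleted cultures, 7246 with R-spondin and 1235 without. Its changes were -2.09 (SE 0.25) and -2.55. Znrf3, the partner of Rnf43, changed by -1.13 (SE 0.23) and -1.42. Nkd1, an inhibitor of Dishevelled, was not well above background in the deleted cultures and was at least 2.57-fold lower there, and it changed by -1.63 without R-spondin. The limma adjusted p for deletion of Axin2, Rnf43, Znrf3 and Nkd1 was 0.0906, 0.0965, 0.294 and 0.391 in the fit without the slide. With slide as a block it was 0.00117, 0.00901, 0.0441 and 0.0482.

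Transcription factors and surface proteins on the Wnt target list differed in how far they moved. Sox9, a crypt transcription factor, changed by -1.95 with deletion and -3.00 without R-spondin, and Myc by -1.28 and -2.40. The Eph receptor Ephb3, which helps to position cells along the crypt, changed by -2.54 and -3.62, and Ephb2 by -0.62 and -1.81. Ascl2, a stem cell transcription factor controlled by Wnt, changed by -0.71 (SE 0.24) with deletion, within a spread that gave a limma adjusted p of 0.586, and by -1.99 without R-spondin. Ascl2, Ephb2, Sox4, Tcf7 and Tiam1 thus stood between the groups, past the cut without R-spondin alone and between 0.3 and 1 with deletion. Sp5, a Wnt-induced repressor, changed by -1.07 with deletion, but by -0.17 on the first slide and -1.98 on the second. Apcdd1 overlapped between wt and deleted cultures, with a change of -0.30 (SE 0.36).

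Of the receptor module fixed for the comparison (16 genes, 12 measured), only members that are also Wnt targets or were deleted were past the cut with deletion in the lower direction. These were Lgr4, Lgr5, Rnf43 and Znrf3. The Dishevelled genes Dvl1, Dvl2 and Dvl3, which relay the signal inside the cell, changed by 0.21, -0.09 and 0.02 with deletion and by 0.28, -0.64 and 0.21 without R-spondin. The co-receptor Lrp5 changed by -0.15 and -0.22. The other co-receptor, Lrp6, had discordant probes, at 1.90 and 0.34 on one and -0.43 and 0.16 on the other. The Frizzled receptor Fzd7 was lower without R-spondin only, at -1.38 against -0.26, and Fzd5 changed by 0.78 and 1.56 with overlapping wt and deleted cultures.

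Of 28 stem cell markers 25 were measured, with medians of -1.22 and -1.99, and 15 were lower in both (1.36% of all genes). Smoc2, Gkn3, Rnf32, Slc14a1 and Cdk6 were among these, and Gkn3 changed by -2.68 and -2.77. Of the 25, Nrn1 was higher with deletion only and Msi1 was higher in both. The stem cell list too was chosen with earlier results known, and Lgr5 is also on the Wnt target list. Paneth cells neighbour the stem cells at the crypt base and make antimicrobial peptides. Of 20 Paneth cell markers 11 were measured, all with a change below 0 in both experiments and with medians of -0.91 and -1.09. The Paneth median was -0.40 within the first slide and -1.33 within the second, and the wt cultures themselves differed by a median of 1.61. In 5 of the 11, the deleted values present lay below the wt values present, against 19.2% of all genes. A value on every deletion array was there for 10 of the 11.

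Cell cycle genes were lower in both experiments but showed the widest gap in size. Of 47 listed genes 44 were measured, with a median of -0.75 with deletion and -2.27 without R-spondin. They included 12 genes of the group lower in both, which holds 1.36% of all genes. Among the 12 were the DNA replication helicase subunits Mcm2 (-1.81 and -3.12), Mcm3 (-1.34 and -3.31), Mcm5, Mcm6 and Mcm7. The mitotic genes Ccna2, Ccnb1, Cenpa and Ube2c were lower without R-spondin only. Ccna2, the cyclin of S phase and G2, had a signal of 3773 and 4367 in wt, 2805 and 4518 in deleted cultures, 9425 with R-spondin and 1575 without. The wt and deleted cultures overlapped, with a change of -0.19 (SE 0.30), while the change without R-spondin was -2.58. The list depended on the slide: its median was -1.21 within the first and -0.32 within the second, and the second deleted culture exceeded the first by a median of 0.65. With slide as a block, limma called 3 of 43 cell cycle genes lower, against 12 of 21 Wnt targets and 1.14% of all genes fitted. Both lists were chosen with earlier results known. Ribosome biogenesis genes (35 of 37 measured) had medians of -0.53 and -1.29, and -0.78 and -0.25 within the slides.

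Of the 54 genes higher in both, 48 had the deleted values present above the wt values present, against 19% of all genes. The 54 were chosen by their deletion change on these same arrays, so this count is in part an outcome of the cut. A value on every deletion array was there for 49 of the 54. H2-Bl, a class I histocompatibility gene, rose with deletion. Its signal was 772 and 746 in wt, 11685 and 13061 in deleted cultures, 573 with R-spondin and 2428 without. The change was 4.02 (SE 0.22, limma adjusted p = 0.0169) with deletion and 2.08 without R-spondin. Other H2-Bl probes gave 4.13 and 2.02, and 2.52 and 1.20. Genes of this family are close copies of each other, so the gene behind the signal is uncertain.

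Aqp3, a water and glycerol channel of the differentiated epithelium, had a signal of 592 and 630 in wt, 1639 and 1954 in deleted cultures, 564 with R-spondin and 4866 without. Both changed cultures stood above their controls, by 1.55 (SE 0.23, limma adjusted p = 0.138, and 0.0124 with slide as a block) and 3.11. Slc51a, a subunit of the bile acid exporter, changed by 1.52 and 2.36, and Id4, an inhibitor of helix-loop-helix transcription factors, by 2.05 and 1.71. Clec2h changed by 1.36 and 3.01, Odf3b by 1.56 and 1.91, and Flvcr2 by 1.72 and 2.15.

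Of the 4 genes that limma called higher with deletion, Nrn1, Dusp16 and Gas6 were among the 46 that were small without R-spondin. Nrn1, a small membrane-anchored protein known from neurons, rose with deletion. Its signal was 244 and 179 in wt, 8939 and 4963 in deleted cultures, 160 with R-spondin and 177 without. The change was 4.99 (SE 0.35, limma adjusted p = 0.0244) and 0.15. Gas6, the ligand of the TAM receptor kinases, rose from 1072 and 863 in wt to 11181 and 8434 in deleted cultures, and was 4093 with and 4060 without R-spondin. Its change was 3.34 (SE 0.26, limma adjusted p = 0.0287) and -0.01.

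Dusp16, a phosphatase of MAP kinases, rose on the probe used, from 162 and 221 to 3314 and 2678, a change of 3.98 (SE 0.26, limma adjusted p = 0.0244) against 0.26 without R-spondin. Another of its probes gave 0.07 and 0.73. The first 30 bases of both probes are given in lower case, with mm9 positions on the minus strand, because the gene's result differs between them.

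Dusp16 probe used, chr6:134665656-134665696: gtacaaaatggtgattttgagcaaaactag

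Dusp16 probe of another result, chr6:134687549-134687608: ggctcttagccagaataatgacttaagttt

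The probe used aligns to only 41 bases of genome in the array's annotation, although it is 60 bases long, and the other aligns over all 60. Among the other genes higher with deletion only, Cybrd1, a duodenal iron reductase, was 4400 in the first and 261 in the second deleted culture, against 169 and 100 in wt. Its change of 3.05 (SE 1.20) had a limma adjusted p of 0.652. Crym, a thyroid hormone binding protein, was at least 5.90-fold higher with deletion (limma adjusted p = 0.240, and 0.0255 with slide as a block). Tmem252 was at least 5.01-fold higher (limma adjusted p = 0.138, and 0.0124 with slide as a block). The hormone gene Gcg was 1135 and 1772 in wt, 3368 and 4160 in deleted cultures, and 288 and 316 with and without R-spondin, a change of 1.40 (SE 0.29) against 0.13.

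The 12 genes lower with deletion only were led by Lgr4. In all 12, the deleted values present lay below the wt values present, against 19.2% of all genes. The 12 were chosen by their deletion change on these same arrays, so this count follows in part from the choice. A value on every deletion array was there for 10 of the 12. Rbm45, an RNA-binding protein, changed by -2.35 with deletion and 0.06 without R-spondin, and Sord, which oxidises sorbitol, by -1.68 and 0.11. Galk2, a sugar kinase, changed by -1.63 and -0.11, and Mansc1 by -1.55 and 0.11. Scgb2b20 was at least 2.39-fold lower with deletion (limma adjusted p = 0.234, and 0.0189 with slide as a block).

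Several of these genes lie on the chromosome of Lgr4. By the array's mm9 positions, 5 of the 11 placed genes lower with deletion only were on chromosome 2 (45.5%), as were 6 of 46 genes higher with deletion only (13.0%), against 7.62% of 13174 placed genes. A window of 20 Mb on either side of Lgr4 was chosen after the values were seen. It held 13 of the 164 placed genes past the cut with deletion and under it without R-spondin (7.93%), against 1.78% of all placed genes and 4 of 180 genes lower in both (2.22%). Lgr4 itself, the deleted gene, is counted in the 13 and in the 5 on chromosome 2. Sord lay 12.2 Mb and Galk2 16 Mb from Lgr4. Jmjd7 (-2.22 with deletion, -0.43 without R-spondin) lay at 10.0 Mb, Vps39 (1.66 and 0.16) at 10.3 Mb, Inafm2 (-1.03 and -0.19) at 8.72 Mb and Exd1 (1.56 and -0.19) at 9.49 Mb. The window around Lgr5 on chromosome 10 held 1 of the 164 genes (0.610%), against 1.19% of all. On chromosome 6, Lrp6, Mansc1 and Dusp16 lay within 1 Mb of each other. A window of 20 Mb on either side of Dusp16 held 8 of the 164 genes (4.88%), against 1.49% of all. That window too was placed after the values were seen, around a gene that had moved, and Dusp16 itself is counted in the 8. Its share is a description only. The deleted cultures differ from wt in the floxed Lgr4 allele as well as in the loss of Lgr4. Whether the DNA around the allele also differs was not measured, and no label gives a strain. For genes near Lgr4, the deletion and any difference in the neighbouring DNA cannot be told apart.

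**Figure D3:**
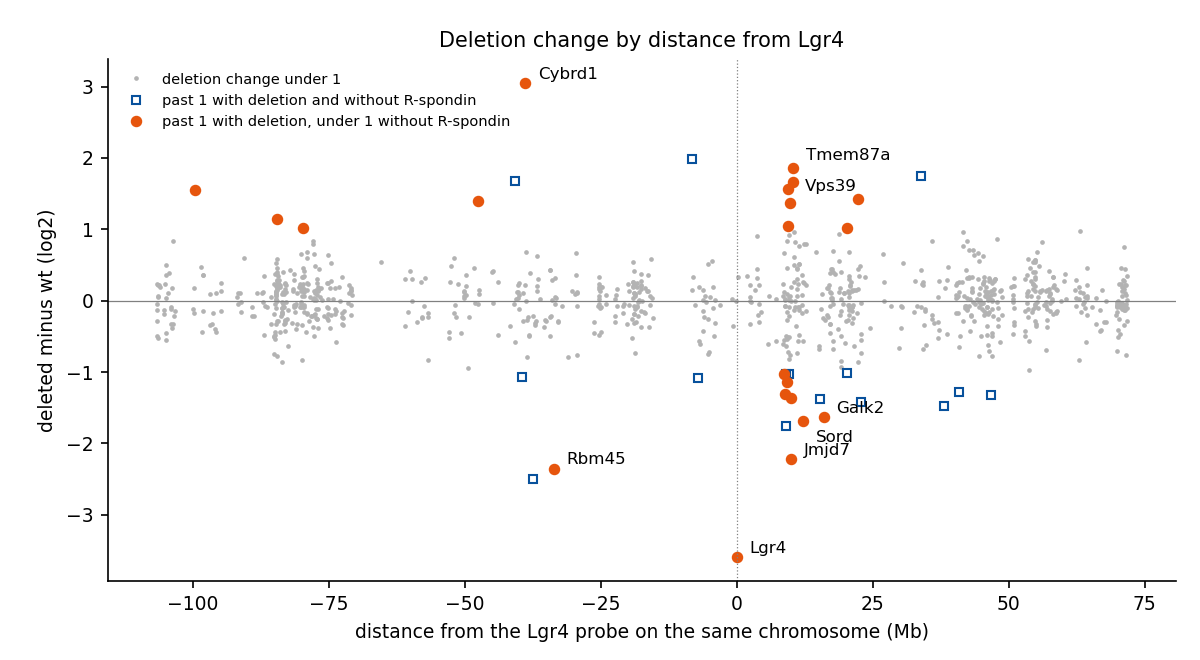
Log2 change with deletion (vertical axis) of the measured genes on chromosome 2 against their distance from the Lgr4 probe in Mb (horizontal axis). Filled circles are genes past 1 with deletion and under 1 without R-spondin, open squares are past 1 with both, and filled circles in both directions gather 8.72 to 16 Mb from Lgr4.

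Crypts isolated from AhCre_Lgr4fl/fl_Lgr5fl/fl mice 1 day after deletion carry floxed alleles of the same genes. Of the 11 genes in the Lgr4 window with crypt values, Lgr4 itself left out, 10 moved in the organoid direction in both crypt replicates and 0 moved against it in both. Of 123 such genes elsewhere, 53 moved in the organoid direction in both crypt replicates (43.1%) and 31 against it in both. Galk2 was at -1.22 and -0.64 in the crypt replicates, Jmjd7 at -1.08 and -0.59, and Vps39 at 0.53 and 0.89.

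Genes that moved without R-spondin only have 1 array on each side, so no test applies to their withdrawal change, and their size is a description. Those that were higher included markers of differentiated cells. Mme, a brush border peptidase, had a signal of 1187 with R-spondin and 4141 without, 2695 and 2259 in wt, and 3169 and 2738 in deleted cultures. Its change was 1.80 without R-spondin and 0.26 (SE 0.23) with deletion. Enpep, another brush border peptidase, changed by 2.22 and -0.05. Gpat3, which makes triglyceride precursors, changed by 1.99 and 0.26, Ugt2b5, a glucuronidation enzyme, by 1.98 and 0.19, and Prkag2 by 1.85 and 0.29. The class I histocompatibility gene H2-Q1 changed by 1.55 and 0.13. Mkln1 changed by 2.89 on the probe used and by 0.44 on another.

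Of 34 enterocyte markers 26 were measured, with a median of 1.48 without R-spondin and 0.36 with deletion. The median was 0.38 within the first slide and 0.29 within the second. Of the 26, 7 were higher without R-spondin only (2.03% of all genes), namely Apob, Cyp3a11, Dpp4, Enpep, Slc2a2, Slc6a19 and Treh, and 2 were higher in both. Of 20 goblet cell markers 16 were measured, with medians of 0.79 and 0.20. Zg16, a mucus protein, had a signal of 29242 with R-spondin and 242354 without, and its change was 3.05 against -0.20 with deletion. Clca1, a mucus-processing protein, changed by 2.62 and 0.20, and its deletion change was 1.01 on the first slide and -0.61 on the second. Of 25 enteroendocrine markers 22 were measured, with medians of 0.51 and -0.06. Chga, Gip and Pyy were higher without R-spondin only, Gcg with deletion only, and the progenitor factor Neurog3 was lower in both, at -1.01 and -1.03.

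The genes lower without R-spondin only included 5 of 15 measured Notch pathway genes, against 214 of all 13278 (1.61%). Notch signalling keeps crypt progenitors from taking a secretory fate. Hes5, a Notch-induced repressor, had a signal of 477 with R-spondin and 129 without, 145 and 154 in wt, and 169 and 152 in deleted cultures. Its level with R-spondin stood above those of all 5 other cultures, which lay between 129 and 169. The changes were -1.89 without R-spondin and 0.10 (SE 0.22) with deletion. Jag2, Hes6, Notch3 and Nrarp changed by -1.61, -1.26, -1.15 and -1.08 without R-spondin and by -0.06, -0.26, -0.05 and 0.01 with deletion. The list had medians of -0.78 and -0.21, and limma called none of its 13 genes with slide as a block. Other named genes of this group were Cachd1 (-1.99 and -0.21), Mpzl1 (-1.60 and -0.28), the linker histone H1f4 (-1.60 and 0.28), Nrm (-1.55 and -0.28), Top1mt (-1.51 and -0.17) and the Paneth defensin Defa39 (-1.42 and 0.00). Defa39 has 1 wt and 1 deleted value missing, and defensin genes are close copies that probes may not separate.

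The 4 genes in opposite directions were Plac9a and Rmdn3, lower with deletion, and Stc2 and Ggh, higher with deletion. Plac9a was 640 and 1119 in wt, 285 and 477 in deleted cultures, 407 with R-spondin and 913 without. Its changes were -1.20 (SE 0.38, limma adjusted p = 0.543, and 0.0278 with slide as a block) and 1.17. Rmdn3, a mitochondrial protein whose gene lies 9.11 Mb from Lgr4, changed by -1.02 and 1.31, and its other probes by -0.62 and 0.97 and by -0.54 and 1.06. Stc2 (1.12 and -1.90) and Ggh (1.02 and -1.14) overlapped between wt and deleted cultures, and they are named after their values were seen.

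The remaining lists had medians from -0.26 to 0.37 with deletion. The aryl hydrocarbon receptor and Nrf2 targets (14 of 25 measured) had medians of 0.35 with deletion and 1.05 without R-spondin, the interferon response genes (21 of 31) 0.25 and 0.47, and the histocompatibility and antigen processing genes (19 of 26) 0.25 and 0.34. Cholesterol synthesis genes (23 of 25) had 0.20 and 0.24, and tuft cell markers (13 of 20) -0.26 and 0.34. The BMP and Id genes (14 of 18) had 0.30 and 0.11, the stress and heat shock genes (19 of 21) 0.37 and 0.02, MAPK response genes (17 of 22) -0.04 and -0.13, and p53 targets with cell cycle inhibitors (23 of 25) 0.04 and 0.15. Epithelial identity genes had 0.11 and -0.23, immune cell markers 0.01 and -0.02, and stromal and endothelial markers -0.15 and 0.11.

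**Figure D4:**
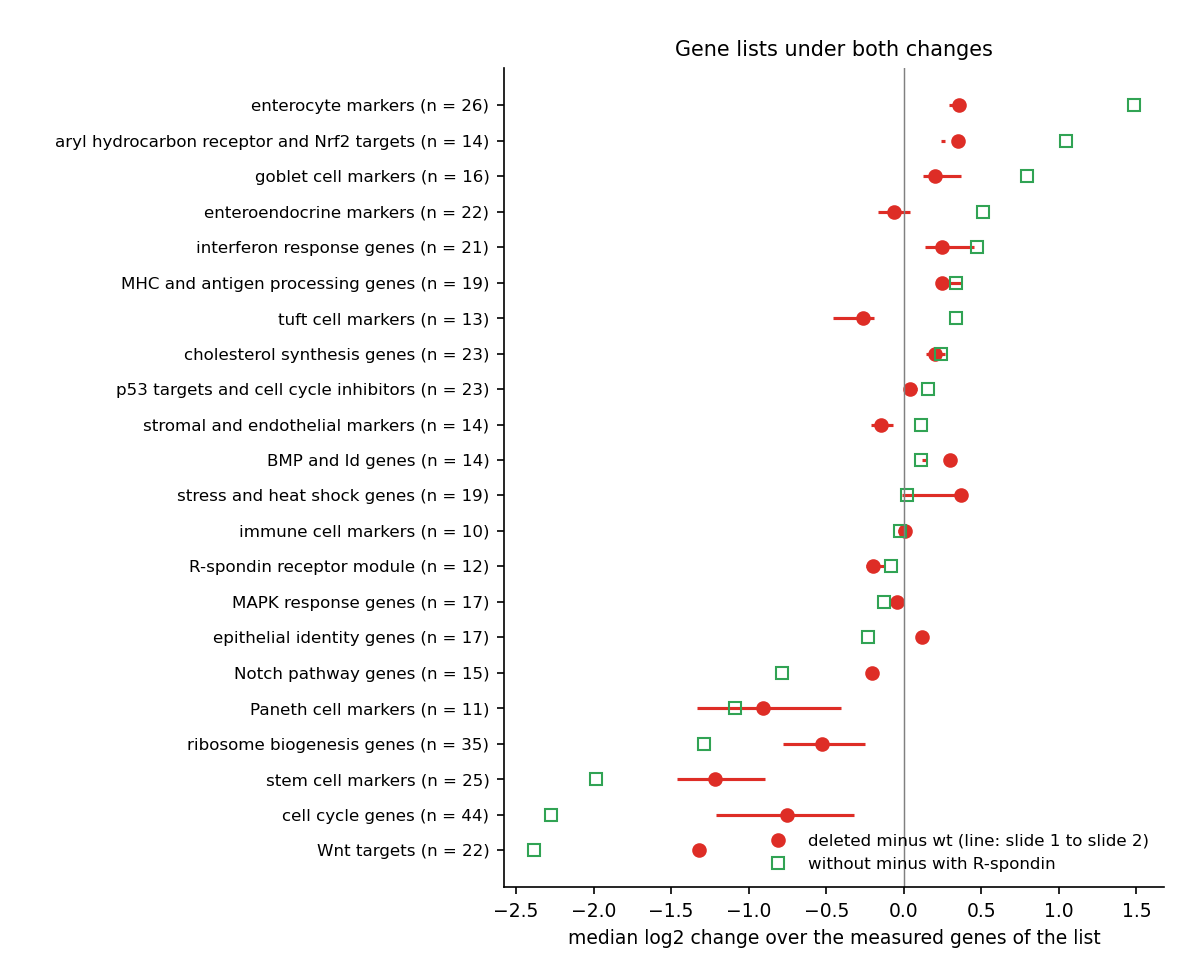
Median log2 change of each gene list, with deletion (filled circles) and without R-spondin (open squares), on 1 axis, with a line joining the medians within the first and second slide of the deletion experiment. Circles can lie off the line because a median of averaged changes need not lie between the slide medians. The slide medians also use only genes with a value on every deletion array. The lines are longest for Paneth cell markers and cell cycle genes and very short for Wnt targets.

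The difference between both changes was tested gene by gene, with the spread of the EN and ENR cultures assumed to be that of the deletion arrays, since each is a single culture. limma called 0 of 13278 genes different (0%) at an adjusted p under 0.05, the smallest being 0.554. At an unadjusted p under 0.05, 310 were lower and 414 higher with deletion than without R-spondin. With slide as a block, limma called 4 genes (0.0318% of 12595). These were Nrn1 (adjusted p = 0.0266), Lgr4, Gas6 and Rgs2 (adjusted p = 0.0432 each). Rgs2, a regulator of G protein signalling named here after its value was seen, changed by -0.16 with deletion and 3.62 without R-spondin, so its call rests on the single EN and ENR cultures. For the other genes described as moving with 1 change only, the difference between the changes did not pass the test.

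The controls of both experiments were not alike. The ENR culture differed from the mean of the wt cultures with a standard deviation of 0.619 over genes, 544 genes being at -1 or less and 726 at 1 or more. Pla2g2a, a secreted phospholipase that is disrupted in some mouse strains, was 136 and 673 in wt, 77.4 and 101 in deleted cultures, 49481 with R-spondin and 23309 without. The R-spondin cultures thus lay far above all 4 deletion cultures. Gas6, Gcg, Hes5 and Rbm45 also differed between the controls, Gas6 being higher with R-spondin than in either wt culture. The part of such differences in the results was not tested.

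The crypt arrays, which played no role in defining the groups, gave values for most members. There, the deleted and wt crypts of a replicate were compared on the same arrays, 2 replicates with a dye swap each. The 173 genes lower in both had a crypt median of -0.47, and 122 of them (70.5%) were below 0 in both replicates, against 32.7% of all 11238 genes with crypt values. The 198 genes lower without R-spondin only had a median of -0.234, and 53% of them were below 0 in both. Of the 8 genes lower with deletion only, 7 were below 0 in both, with a median of -0.66. The 8 include Lgr4 itself and 3 genes of its window, and of the 4 others 3 were below 0 in both. The 53 genes higher in both had a median of 0.27, with 30 (56.6%) above 0 in both replicates, against 29.9% of all. The 249 genes higher without R-spondin only had a median of 0.29, with 140 (56.2%) above 0 in both. The 38 genes higher with deletion only had a median of 0.06, with 16 above and 10 below 0 in both. Over all genes the median was -0.02. Olfm4 was at -1.81, Lgr5 at -1.68 and Lgr4 at -1.56, while Axin2 was at -0.69 and Rnf43 at -0.43 and 0.46 in the replicates. The crypts also held immune cell RNA: 7 of 7 immune markers were higher in deleted crypts in both replicates, with a median of 1.502. Aryl hydrocarbon receptor and Nrf2 targets were higher there in both replicates in 13 of 13, with a median of 1.42. Interferon response genes were higher in 15 of 18, with a median of 0.74. The part of these differences in the crypt values was not tested.

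**Figure D5:**
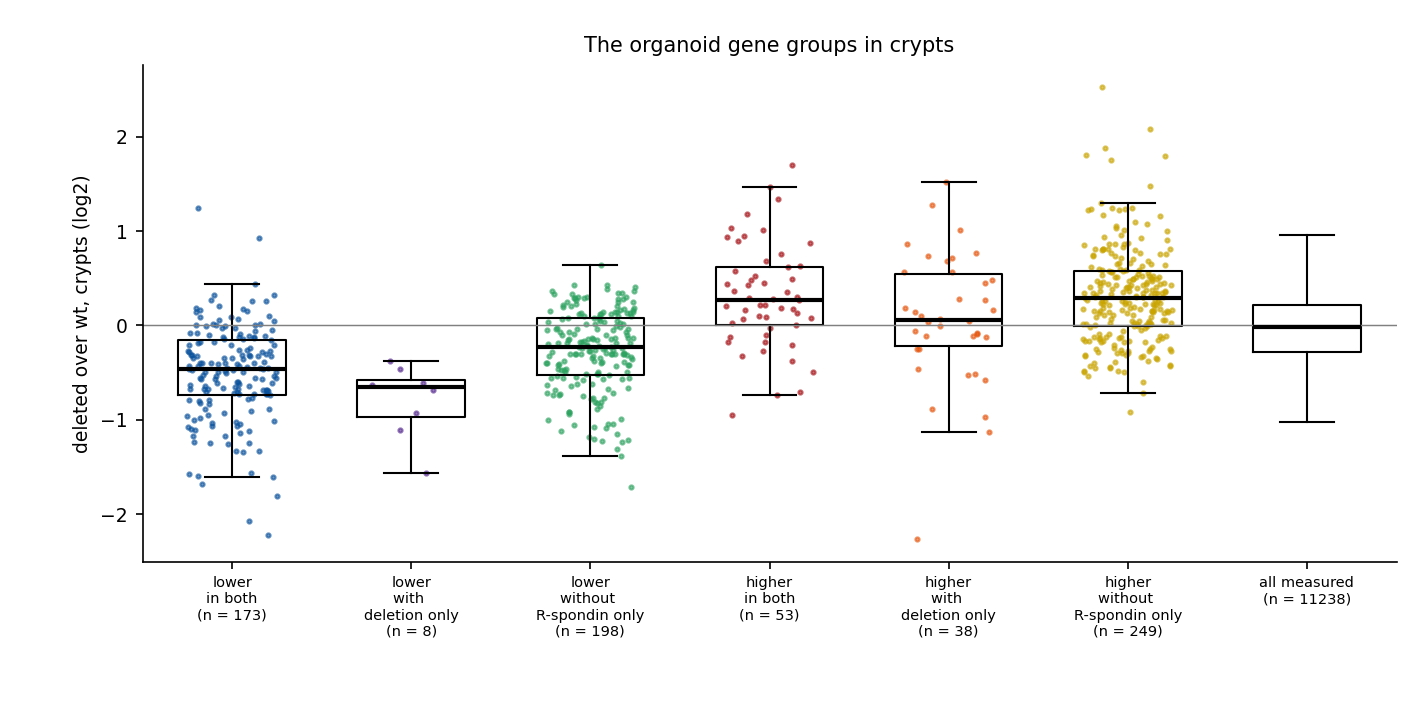
Log2 ratio of deleted over wt crypts (vertical axis) for each organoid gene group, with points for genes, boxes for the quartiles, a bar at the median and whiskers to the last value within 1.5 box lengths. The group lower in both sits lowest among the larger groups, at a median of -0.47, and the genes higher with deletion only centre at 0.06.

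Promoter sequence was searched for the core letters of the motif bound by the TCF factors through which Wnt acts, CTTTGAT on either strand, and for the looser CTTTGNT, which contains it. RefSeq promoters (GRCm38.p6, 250 bases before to 50 after the start) matched 135 of the 180 genes lower in both, with 166 promoters. Of these, 4 held CTTTGAT (2.41%), against 2.53% of the promoters of all measured genes and 3.73% of all 32851 promoters. CTTTGNT was in 15.7%, 14.1% and 18.6%. CTTTGAT was in 10 of 185 promoters of genes lower without R-spondin only (5.41%) and in 3 of 41 of genes higher in both (7.32%). These shares describe this window and say nothing of sites elsewhere. The bases upstream of the start are shown for Sp5, lower in both, and for Ube2c, lower without R-spondin only, as named genes of each group with CTTTGAT there, with matches to CTTTGNT in capitals.

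Sp5, chr2:70474673-70474922, plus strand: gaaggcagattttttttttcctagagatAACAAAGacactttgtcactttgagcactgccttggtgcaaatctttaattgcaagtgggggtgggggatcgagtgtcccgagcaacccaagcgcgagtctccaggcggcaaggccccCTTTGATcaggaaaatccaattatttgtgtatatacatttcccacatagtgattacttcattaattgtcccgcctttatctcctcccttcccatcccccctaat

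Ube2c, chr2:164769679-164769928, plus strand: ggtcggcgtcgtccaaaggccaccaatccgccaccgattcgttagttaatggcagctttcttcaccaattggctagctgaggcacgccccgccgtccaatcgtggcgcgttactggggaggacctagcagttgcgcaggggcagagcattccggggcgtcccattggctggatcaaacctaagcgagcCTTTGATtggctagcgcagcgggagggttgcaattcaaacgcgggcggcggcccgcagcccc

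Genes at the edge of the groups show how fine the sorting is. Il17rd was the gene just inside the group lower in both, at -1.21 with deletion and -1.001 without R-spondin, and Syce2 was just outside, at -0.9999 and -2.12. Igsf9 (1.004 and 1.28) was just inside and Mycbpap (0.998 and 1.504) just outside the group higher in both. Myh7 (1.89 and -0.29) and Rnf166 (1.01 and 0.30) stood on either side for deletion only, and Nup37 (-0.30 and -1.57) was just outside the group for withdrawal only.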

How the data were processed

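The 6 organoid arrays were read from the deposited scanner files of Agilent Feature Extraction 10.5.1.1, per the file headers, while the submitters' processing notes name 8.5.1.1. These files hold Cy5 and Cy3 intensity per spot, per the file headers. Median pixel intensity was background-corrected with normexp (offset 50), quantile-normalised over the 6 arrays and taken to log2, with Cy5 outlier spots dropped. Probes were named through RefSeq accession (26786 of 41174 probes), current symbol (5123) or older symbol (934), and 8331 kept the file's name. Kept probes were well above background throughout 1 group or more of both experiments, and the brightest stood for its gene. Changes were fitted with limma 3.58.1 in R 4.3.3 over all genes, tested on simulated data, with Benjamini-Hochberg adjustment. The withdrawal has no replicates and no p-value. Crypt arrays were normalised by loess, dye swaps averaged. The scanner software's log10 ratio per the file headers and the authors' deposited series matrix of log10 ratios, taken to log2, served as alternatives only. The number of arrays limits the precision. Named genes were up to 6 per group with wt and deleted cultures apart and no disagreeing probe where possible, all measured receptor and Wnt target genes, list members in a group, called genes and those nearest the limits; 1 gene nearest a limit is not reported here. The members and lists were chosen with earlier results of these data known.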

Additional observations from a re-analysis of the deposited data

Results flagged for a closer look

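For 9 named genes, both organoid slides lay on one side of 0 and both crypt replicates on the other with deletion; the difference itself was not tested. Higher in organoids and lower in crypts were Nrn1 (4.99 and -0.58), Id4 (2.05 and -0.17), Gcg (1.40 and -0.52), Fzd5 (0.78 and -1.06) and H1f4 (0.28 and -1.23). Lower in organoids and higher in crypts were Sp5 (-1.07 and 0.33), Neurog3 (-1.03 and 0.21), Nop56, a ribosome biogenesis factor (-1.02 and 0.17), and Mkln1 (-0.15 and 0.26). Fzd5 overlapped between wt and deleted organoids, and Sp5 was at -0.17 on 1 slide. No organoid group held 4 or more arrays, so no array was compared with others of its group for outlying values.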

How the results depend on the processing

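Counts are given in the order lower in both (180), higher in both (54), deletion only (58), withdrawal only (484), opposite (4), and only where they left 1.5 times these values. The Cy5 over Cy3 ratio gave 95 lower in both, 202 deletion only, 874 withdrawal only and 30 opposite genes, and the deposited ratios 49, 11, 88, 1333 and 8 in that order. The first slide alone gave 358, 91, 88 and 13 (lower, higher, deletion only, opposite), and the second 110 deletion only, 804 withdrawal only and 14 opposite. A limit of 1.5 gave 57, 7, 22, 120 and 0, a small limit of 0.5 gave 108 and 1047 for the single changes, and keeping outlier spots gave 2 opposite genes. Without 1 culture each, the ranges were 103 to 341, 52 to 113, 61 to 139, 396 to 798 and 3 to 17. The fewest genes lower in both came without deleted replicate 1 (103) and the most without deleted replicate 2 (341). Membership also moved. The processed signal kept 128 of the 180, 21 of the 54, 26 of the 58, 280 of the 484 and 1 of the 4 genes, the Cy5 over Cy3 ratio 51, 9, 14, 240 and 0, and the deposited ratios 32, 3, 5, 261 and 0. The genes limma called lower and higher with deletion (1 and 4) numbered 40 and 30 with the scanner's processed signal, 17 and 10 with 75th percentile scaling, 0 and 1 with no filter, and 0 and 0 with both ratios. At an unadjusted p under 0.05, the ratios gave 516 (Cy5 over Cy3) and 300 (deposited) genes and no filter gave 1737. With outlier spots 3 were lower, with an offset of 16 it was 7, and with slide as a block 144 lower and 93 higher. Leaving out 1 culture gave 1 to 55 lower and 3 to 93 higher, the most without wt replicate 1. Difference calls, 0 in the fit without the slide, were 1 with the deposited ratios, 4 with slide as a block and 0 to 0 without 1 culture. Signs turned for Apcdd1 with deletion (1.27 by the Cy5 over Cy3 ratio, 0.36 on the first slide, -0.75 to 0.15 without 1 culture, positive without deleted replicate 2), Lgr6 (0.043 and 0.52 by the ratios), and, by the Cy5 over Cy3 ratio, Rmdn3 (0.094), Slc51a (-0.10), Sp5 (0.48) and the BMP and Id median (-0.00588). H2-Q1 without R-spondin was -0.28 by the deposited ratios, and the stress median was -0.013 on the second slide. The cause of these moves was not tested. By replicate number, no paired analysis was possible because organoid labels share none; slide as a block pairs the cultures by slide. The low Cy3 signal of the deletion arrays limits the ratios, and 1 array each limits the withdrawal.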
